A study of Mus musculus with 6 samples.

Results

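The genes described here encode the mitochondrial respiratory chain, the ATP synthase, the mitochondrial ribosome and the protein import machinery of mitochondria. Members were chosen by symbol among probes with a single gene symbol, as names that start with Nduf, Uqcr, Atp5, Mrpl, Mrps, Timm or Tomm, or with Cox and a digit, together with Sdha, Sdhb, Sdhc, Sdhd, Cycs and Cyc1. This gave 49 genes, each with 1 probe, of 6041 named genes measured. The samples were neocortex RNA of 6 mouse embryos on a C57BL/6 background at embryonic day 14. They were null mutants that the labels call synaptically silent, and each was hybridised on its own array of 2 colours against 1 pool of 6 wild-type neocortex samples of the same age and background. The mutant was labelled with cy3 on replicates 1, 2 and 3, called the cy3 arrays here, and with cy5 on replicates 4, 5 and 6, the cy5 arrays. The labels name no promoter, Cre or selected cell type, so the RNA is that of the whole piece of neocortex, with neurons, progenitors and other cells together.

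Mitochondria make most ATP of a cell by passing electrons from NADH and succinate through complexes I to IV of the inner membrane and by using the resulting proton gradient to drive ATP synthase. A few core subunits are encoded by mitochondrial DNA and made on mitochondrial ribosomes, while the genes measured here are nuclear, so that their proteins are made in the cytosol and enter through the TOM complex of the outer membrane and the TIM complexes of the inner membrane. In developing cortex, dividing progenitors rely strongly on glycolysis, and differentiating neurons come to rely on oxidative phosphorylation, which later supplies much of the energy for synaptic transmission.

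Each value is a log ratio of mutant and pool on 1 array, read as base 2 and as mutant over pool, so that a value above 0 would stand for more RNA in the mutant. The deposited table does not state the direction. If it holds cy5 over cy3 on every array, the sign of the cy3 arrays has to be turned. If it holds cy3 over cy5, the sign of the cy5 arrays has to be turned instead. The readings as deposited and with the cy3 arrays turned are therefore both given for the members as a group. Turning the cy5 arrays gives the latter reading with the opposite sign. For many single genes and some lists only the reading as deposited is given. The joint fit of limma returns for each probe the mean of both orientations, called the ratio, which is the mutant effect as deposited. It also returns the cy5 mean minus the cy3 mean, divided by 2, called the orientation estimate. This is the mutant effect when replicates 1 to 3 are turned, and its negative is that effect when replicates 4 to 6 are turned. Otherwise it is the dye effect. Over all probes, replicates 3 and 4 stood apart. They correlated at 0.59 with each other although the mutant carried different dyes, and replicate 3 correlated at -0.20 and -0.19 with replicates 1 and 2 of its own orientation, while replicate 4 correlated at -0.26 and -0.08 with replicates 5 and 6. Replicate 3 was also the widest array, with a standard deviation of 1.09 against 0.35 on replicate 2. Ratios are given with and without these 2 arrays where that changes the sign or moves the ratio by over 1.5 times. Since the pool is 1 sample, differences among wild-type animals do not enter the test, and the number of arrays limits the precision. Ratios give no level, so whether cortical markers are expressed could not be read from them. In whole tissue, fewer cells of a type and less RNA per cell cannot be told apart.

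No mitochondrial gene passed the test in either reading with all arrays weighted equally. Of the 49 members 48 had enough values for the fit. Atp5g1, which encodes the c subunit of ATP synthase, had no value on any array. For the ratio, limma gave 0 of 48 members below the threshold of 0.05 after adjustment and 0 before it, beside 0.0% and 1.77% of 4958 probes. For the orientation estimate, 0 of 48 had an adjusted p under 0.05, beside 0.0% of all probes, and 5 of 48, or 10.4%, had an unadjusted p under 0.05, beside 4.6% of all probes. All 5 of these had negative orientation estimates, so 10.4% of members lay below 0 at this p, beside 2.1% of all probes. The 5 genes are Mrpl4, Cox7a2, Atp5j, Cox5a and Ndufa4. The smallest adjusted p of a member was 0.921 for the ratio and 0.972 for the orientation estimate.

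The members as a group lay a little below 0. The ratio was below 0 for 33 of 48, with a median of -0.12, beside 56.7% of all probes and a median of -0.033. The orientation estimate was below 0 for 31 of 48, with a median of -0.051, beside 47.0% and 0.015. Without replicates 3 and 4 the ratio was below 0 for 26 of 48, with a median of -0.0071, and the orientation estimate for 35 of 48, with a median of -0.097, beside 37.4% and 52.2% of all probes. The median ratio was thus near 0 without these arrays, while the orientation median moved further from 0.

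The arrays differed more than these medians show. The median over the members was 0.11, 0.066, -0.12, -0.24, -0.088 and -0.26 on replicates 1 to 6, beside 0.049, 0.040, -0.24, -0.13, 0.039 and -0.0041 over all genes. On replicates 1 and 2, 13 and 17 of 48 members were below 0, beside 43.9% and 42.9% of all probes. On replicates 3 and 4 they numbered 28 and 33 of 46, beside 58.2% and 59.7%. On replicates 5 and 6 they numbered 31 and 35 of 48, beside 44.6% and 50.6%. Ranked among all probes of the same array, which removes the difference in width, the median member stood at percentile 57.6, 54.5 and 53.8 on the cy3 arrays and at 40.5, 33.2 and 21.6 on the cy5 arrays. On replicate 6, 26 of 48 members stood at or below percentile 25 of the array and 4 above percentile 75. On replicate 1 these numbers were 6 and 12 of 48. The mitochondrial genes thus ranked lowest on the arrays where the mutant carried cy5, and mutant and dye cannot be told apart within 1 orientation.

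**Figure D1:**
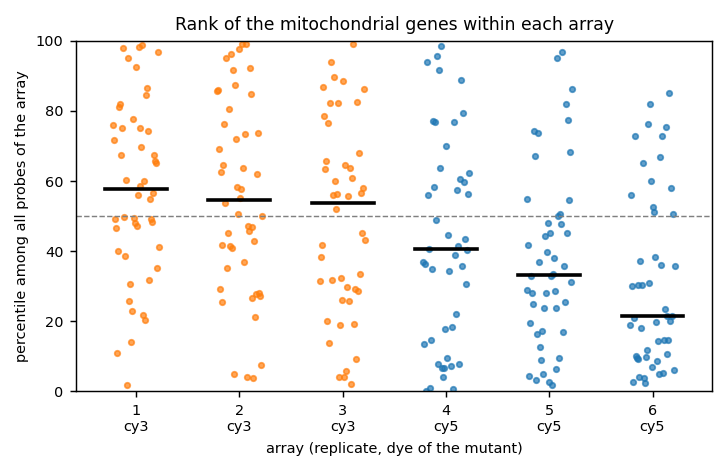
Percentile of each mitochondrial gene among all probes of its array (vertical axis), by array (horizontal axis, with the dye of the mutant); orange points are the cy3 arrays, blue points the cy5 arrays, and black bars the medians. The medians lie between 53.8 and 57.6 on the cy3 arrays and between 21.6 and 40.5 on the cy5 arrays.

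**Figure D2:**
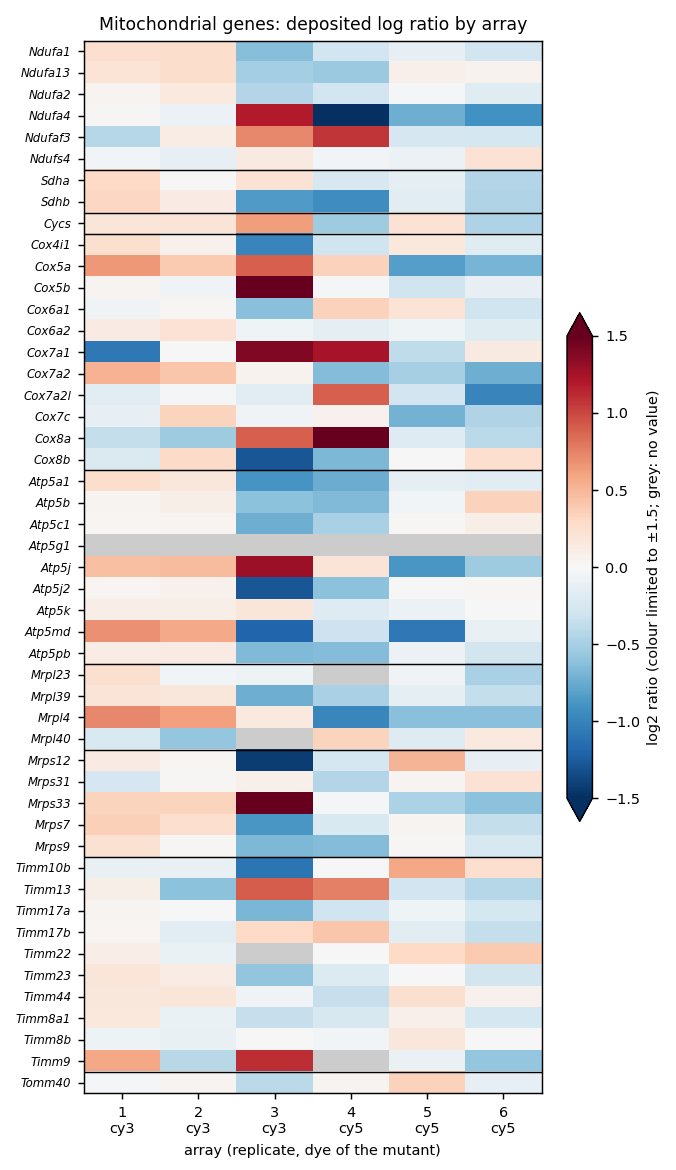
Deposited log2 ratio of the 49 mitochondrial genes (rows, in blocks by complex, from complex I at the top to Tomm40) on the 6 arrays (columns, with the dye of the mutant); red is above 0, blue below 0, grey has no value, and the colour is limited to 1.5 in size. Replicates 3 and 4 hold most of the strong colours, with Ndufa4 at -4.08 on replicate 4 and Mrps33 at 3.76 on replicate 3 beyond the colour range.

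Complex I takes electrons from NADH, and 6 genes with an Nduf name had a probe. The supernumerary subunits Ndufa1, Ndufa2 and Ndufa13 stayed between -0.64 and 0.27 on all arrays. Ndufa1 lay at 0.25, 0.27 and -0.64 on the cy3 arrays and -0.28, -0.13 and -0.29 on the cy5 arrays, with a ratio of -0.14 ± 0.15 (SE, n = 6). It was thus above 0 on replicates 1 and 2 and below 0 on the other 4, and without replicates 3 and 4 its ratio was 0.023. Ndufa2 had a ratio of -0.12 ± 0.13 (SE, n = 6), or -0.0030 without replicates 3 and 4, and Ndufa13, which also has a role in cell death, lay between -0.55 and 0.27. Ndufs4, a subunit whose loss causes a Leigh-like encephalopathy in mice, stayed between -0.12 and 0.21 on all 6 arrays. Ndufa4, which carries a complex I name but is now assigned to complex IV, spanned the widest range of any member. It lay at 0.019, -0.091 and 1.19 on the cy3 arrays and -4.08, -0.73 and -0.91 on the cy5 arrays. The ratio of Ndufa4 was -0.77 ± 0.45 (SE, n = 6) and its orientation estimate -1.14 ± 0.45 (SE, n = 6) (limma, unadjusted p = 0.0377; adjusted p = 0.972). Every cy5 value of Ndufa4 was lower than every cy3 value, but the sizes depend on the 2 arrays that stand apart, since without replicates 3 and 4 the ratio was -0.43 and the orientation estimate -0.39. The assembly factor Ndufaf3 lay high on the 2 arrays that stand apart, at -0.43, 0.11 and 0.72 on the cy3 arrays and 1.07, -0.25 and -0.27 on the cy5 arrays, and its ratio of 0.16 ± 0.23 (SE, n = 6) became -0.21 without them.

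Complex II links the citric acid cycle to the chain, and its 2 catalytic subunits had probes. The iron-sulfur subunit gene Sdhb lay at 0.31, 0.12 and -0.85 on the cy3 arrays and -0.94, -0.17 and -0.45 on the cy5 arrays. It was above 0 on replicates 1 and 2 and below 0 on the other 4, and its ratio of -0.33 ± 0.19 (SE, n = 6) was the member ratio with the smallest unadjusted p, 0.122. Without replicates 3 and 4 it stood at -0.049. The flavoprotein gene Sdha lay at 0.30, -0.0070 and 0.22 on the cy3 arrays and -0.24, -0.14 and -0.44 on the cy5 arrays. All its cy5 values lay below its cy3 values, with an orientation estimate of -0.22 ± 0.11 (SE, n = 6). No Uqcr or Cyc1 gene was among the probes with a single symbol here, so that complex III is represented by none of its subunits. Somatic cytochrome c, Cycs, which carries electrons from complex III to complex IV, lay at 0.18, 0.19 and 0.63 on the cy3 arrays and -0.54, 0.22 and -0.46 on the cy5 arrays. Its ratio was 0.036 ± 0.15 (SE, n = 6), or -0.037 without replicate 3 and -0.083 without replicate 5, and its cy3 and cy5 values overlapped.

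Complex IV, cytochrome c oxidase, was the group with the most members, and its genes did not share one course. Of 11 genes 7 had a ratio below 0 and 6 an orientation estimate below 0. Cox4i1 and Cox5a encode nuclear subunits that assemble early. Cox4i1 lay at 0.24, 0.062 and -0.99 on the cy3 arrays and -0.30, 0.16 and -0.18 on the cy5 arrays, and Cox5a at 0.65, 0.39 and 0.90 on the cy3 arrays and 0.35, -0.83 and -0.70 on the cy5 arrays. The Cox5a values were all above 0 on the cy3 arrays and on replicate 4, and below 0 on replicates 5 and 6. The orientation estimate of Cox5a was -0.52 ± 0.18 (SE, n = 6) (limma, unadjusted p = 0.024; adjusted p = 0.972), and its ratio of 0.13 ± 0.18 (SE, n = 6) became -0.12 without replicates 3 and 4. The zinc-binding subunit gene Cox5b stayed between -0.30 and 0.04 on 5 arrays and stood at 1.86 on replicate 3. Without replicate 3 its ratio moved from 0.24 ± 0.26 (SE, n = 6) to -0.074.

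The small subunits of complex IV include tissue isoforms, and the ubiquitous and the muscle forms can be set side by side. Cox7a2, the ubiquitous form of subunit VIIa, lay at 0.52, 0.42 and 0.051 on the cy3 arrays and -0.65, -0.49 and -0.73 on the cy5 arrays. It was above 0 on every cy3 array and below 0 on every cy5 array, with an orientation estimate of -0.48 ± 0.12 (SE, n = 6) (limma, unadjusted p = 0.0047; adjusted p = 0.972). Cox7a1, the heart and muscle form of the same subunit, lay at -1.07, -0.011 and 1.39 on the cy3 arrays and 1.23, -0.39 and 0.13 on the cy5 arrays, high on replicates 3 and 4 and without a common sign elsewhere. Its ratio of 0.21 ± 0.34 (SE, n = 6) became -0.33 without these arrays. Cox7a2l, a related protein that takes part in joining respiratory complexes, lay at -0.17, -0.012 and -0.17 on the cy3 arrays and 0.90, -0.29 and -0.99 on the cy5 arrays, with a ratio of -0.12 ± 0.23 (SE, n = 6) and -0.37 without replicates 3 and 4. Cox8a, the ubiquitous form of subunit VIII, was below 0 on replicates 1, 2, 5 and 6 and stood at 0.90 and 1.72 on replicates 3 and 4. The muscle form Cox8b had the opposite sign on replicates 3 and 4, at -1.28 and -0.67, and a ratio of -0.27 ± 0.23 (SE, n = 6), or 0.080 without them. Cox6a1, the ubiquitous form of subunit VIa, ran from -0.63 to 0.34, and the muscle form Cox6a2 from -0.18 to 0.22. Cox7c had a ratio of -0.16 ± 0.14 (SE, n = 6), or -0.24 without replicates 3 and 4, and lay lowest on replicates 5 and 6, at -0.70 and -0.45. The table does not show which probes were near background. These families also have close copies, and the probe sequences were not used here, so that shared signal was not tested.

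ATP synthase uses the proton gradient to make ATP. Its head subunits had similar values across the arrays. Atp5a1, the alpha subunit, lay at 0.27, 0.17 and -0.88 on the cy3 arrays and -0.74, -0.14 and -0.17 on the cy5 arrays, and Atp5b, the beta subunit, at 0.042, 0.090 and -0.62 on the cy3 arrays and -0.67, -0.036 and 0.34 on the cy5 arrays. Atp5c1, the gamma subunit that turns inside the head, lay at 0.029, 0.043 and -0.73 on the cy3 arrays and -0.49, 0.023 and 0.087 on the cy5 arrays. Each of the 3 was above 0 on replicates 1 and 2, between -0.88 and -0.49 on replicates 3 and 4, and closer to 0 on replicates 5 and 6. Values above 0 on replicates 1 and 2 and below 0 on replicates 3 and 4 were common over the arrays, at 33.1% of 3763 probes with complete values. Their ratios were -0.25 ± 0.19 (SE, n = 6), -0.14 ± 0.17 (SE, n = 6) and -0.17 ± 0.16 (SE, n = 6), and without replicates 3 and 4 they stood at 0.031, 0.11 and 0.045. The peripheral stalk subunit Atp5pb, with a ratio of -0.24 ± 0.15 (SE, n = 6), and the membrane subunit Atp5j2, with -0.30 ± 0.21 (SE, n = 6), followed the same course and stood at -0.034 and 0.028 without these arrays.

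The other 3 fitted subunits of ATP synthase had different values. Atp5j, coupling factor 6 of the peripheral stalk, lay at 0.46, 0.47 and 1.28 on the cy3 arrays and 0.19, -0.88 and -0.54 on the cy5 arrays. It was highest on replicate 3, where the head subunits were below 0, and below 0 on replicates 5 and 6, and its orientation estimate was -0.57 ± 0.19 (SE, n = 6) (limma, unadjusted p = 0.0175; adjusted p = 0.972). The ratio of Atp5j was 0.16 ± 0.19 (SE, n = 6), or -0.12 without replicates 3 and 4. Atp5md, a small subunit involved in holding synthase dimers together, lay at 0.68, 0.57 and -1.19 on the cy3 arrays and -0.31, -1.07 and -0.11 on the cy5 arrays, with values beyond 1 in size on replicates 3 and 5. Its orientation estimate was -0.26 ± 0.27 (SE, n = 6), or -0.61 without replicates 3 and 4. Atp5k, the e subunit, stayed within -0.19 and 0.18, with each cy5 value below each cy3 value.

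Mitochondrial ribosomes translate the few proteins encoded in mitochondrial DNA. In the large subunit 4 genes had probes, all with ratios below 0. Mrpl4 lay at 0.73, 0.62 and 0.15 on the cy3 arrays and -0.98, -0.62 and -0.63 on the cy5 arrays. Its values were above 0 on all 3 cy3 arrays and below 0 on all 3 cy5 arrays, and its orientation estimate of -0.62 ± 0.13 (SE, n = 6) had the smallest p of any member (limma, unadjusted p = 0.0019; adjusted p = 0.972). Its ratio was -0.12 ± 0.13 (SE, n = 6), or 0.022 without replicates 3 and 4. Mrpl39 lay at 0.20, 0.17 and -0.74 on the cy3 arrays and -0.48, -0.13 and -0.36 on the cy5 arrays, close to the course of the ATP synthase head. Its ratio was -0.22 ± 0.16 (SE, n = 6). It came to -0.030 when replicates 3 and 4 were left out, and to -0.070 when only replicate 3 was. Mrpl40, which has no value on replicate 3, had a ratio of -0.15 ± 0.15 (SE, n = 5), and Mrpl23, which has none on replicate 4, had -0.11 ± 0.14 (SE, n = 5).

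In the small ribosomal subunit 4 of 5 ratios were below 0. Mrps7, Mrps9 and Mrps12 were above 0 on replicates 1 and 2 and below 0 on replicates 3 and 4. Mrps9 lay at 0.23, 0.023 and -0.68 on the cy3 arrays and -0.64, 0.021 and -0.24 on the cy5 arrays, and its ratio was -0.21 ± 0.16 (SE, n = 6), or 0.0087 without these arrays. Mrps7 had -0.13 ± 0.18 (SE, n = 6) and Mrps12 -0.19 ± 0.23 (SE, n = 6), which became 0.076 and 0.13 without replicates 3 and 4. Mrps33 lay at 0.33, 0.34 and 3.76 on the cy3 arrays and -0.026, -0.47 and -0.62 on the cy5 arrays. Its signs opposed each other between the orientations, with an orientation estimate of -0.92 ± 0.44 (SE, n = 6), but the size rests on replicate 3, and without replicates 3 and 4 it was -0.44. Its ratio of 0.55 ± 0.44 (SE, n = 6) became -0.10 without them. Mrps31 ran from -0.44 to 0.21 without a shared sign.

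The import genes carry proteins made in the cytosol across the membranes, and 5 of 10 Timm genes had a ratio below 0. The channel subunits Timm17a and Timm23 had ratios of -0.21 ± 0.14 (SE, n = 6) and -0.13 ± 0.14 (SE, n = 6), with their lowest values, -0.68 and -0.59, on replicate 3. Without that array they were -0.094 and -0.0072, and without replicates 3 and 4 -0.072 and 0.0039. Timm17b, the X-linked relative of Timm17a, differed from it on replicates 3 and 4, at 0.30 and 0.42 against -0.68 and -0.29. Timm22, the core of the carrier translocase, has no value on replicate 3 and had a ratio of 0.11 ± 0.14 (SE, n = 5), or 0.17 without replicates 3 and 4. Timm44, which ties the import motor to the channel, stayed between -0.35 and 0.24. Among the small chaperones of the intermembrane space, Timm8a1 had a ratio of -0.12 ± 0.12 (SE, n = 6), or -0.033 without replicates 3 and 4, and Timm8b one of -0.012 ± 0.10 (SE, n = 6), or -0.0052 without them, while Timm13 and Timm9 stood at 0.90 and 1.11 on replicate 3. Timm10b lay at -0.11, -0.11 and -1.09 on the cy3 arrays and 0.0092, 0.58 and 0.25 on the cy5 arrays, below 0 on every cy3 array and above 0 on every cy5 array, with an orientation estimate of 0.36 ± 0.17 (SE, n = 6). Tomm40, the pore of the outer membrane, lay at -0.028, 0.040 and -0.40 on the cy3 arrays and 0.038, 0.34 and -0.13 on the cy5 arrays, with a ratio of -0.022 ± 0.12 (SE, n = 6), or 0.057 without replicates 3 and 4.

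**Figure D3:**
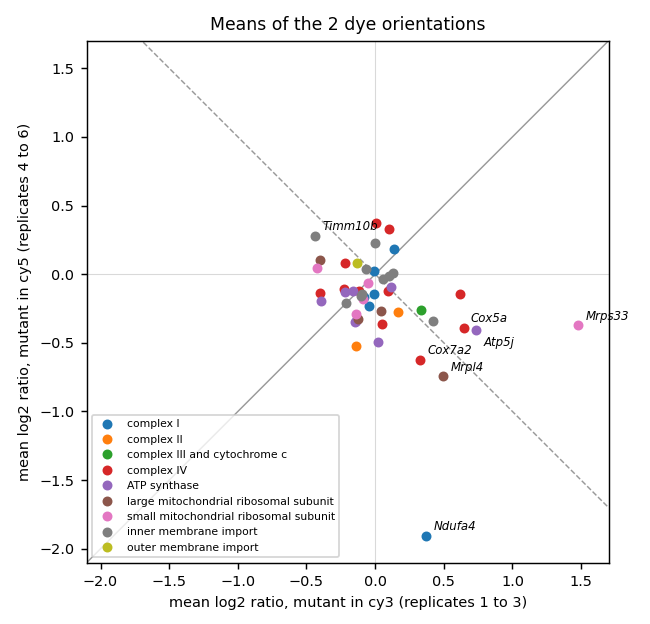
Mean log2 ratio on the cy5 arrays (vertical axis) against that on the cy3 arrays (horizontal axis) for each fitted mitochondrial gene, coloured by complex; the solid line marks equal means and the dashed line means of equal size and opposite sign. Most genes lie near the origin, while Mrpl4, Cox7a2, Cox5a and Atp5j lie in the lower right near the dashed line, and Ndufa4 and Mrps33 lie far out through 1 array each.

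The orientation of the dyes separated more members in one direction than in the other. Among 44 members with values on all 6 arrays, every cy3 value exceeded every cy5 value in 8, or 18.2%, beside 4.92% of 3763 probes with complete values. The 8 were Atp5j, Atp5k, Cox5a, Cox7a2, Mrpl4, Mrps33, Ndufa4 and Sdha. The reverse held for 1 member, Timm10b, or 2.27%, beside 4.97%. Cox7a2, Mrpl4 and Mrps33 were above 0 on all cy3 and below 0 on all cy5 arrays, which is 6.82% of members beside 2.23% of probes. With the cy3 arrays turned, these 3 would be below 0 on all 6 arrays, as would the same 2.23% of probes. Timm10b would be above 0 on all 6, and the share of probes with that sign is not given here. As deposited, 0 of 44 members had 1 sign on all arrays, beside 1.44%. The share of members with the first pattern is a description of a list chosen with earlier results known.

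**Figure D4:**
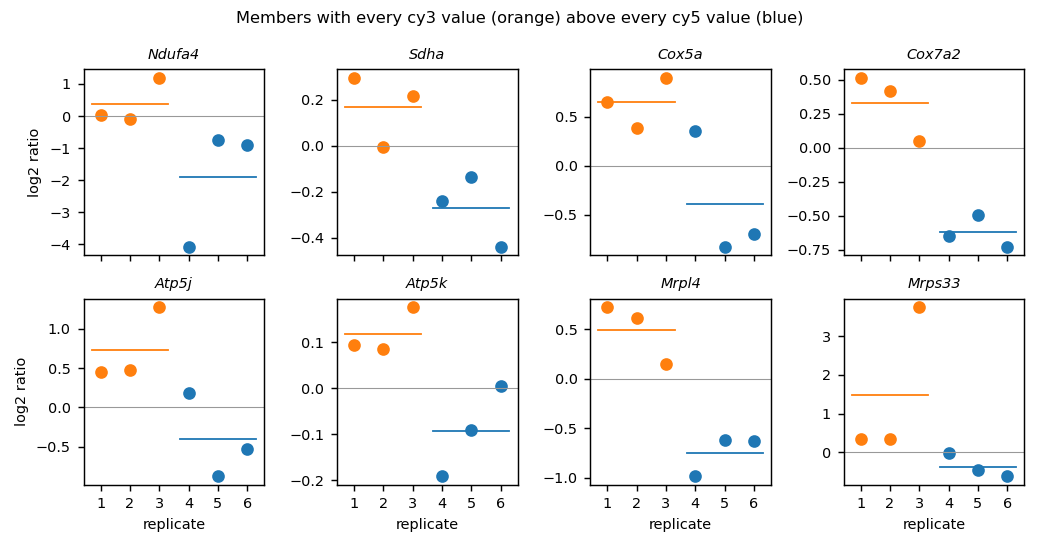
Log2 ratio (vertical axis, scaled for each gene) on replicates 1 to 6 (horizontal axis) of the 8 mitochondrial genes whose cy3 values (orange) all exceed their cy5 values (blue); lines mark the mean of each orientation. In Mrpl4 and Cox7a2 the orientations lie on opposite sides of 0, whereas the distance in Ndufa4 and Mrps33 comes largely from replicate 4 and replicate 3.

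The orientation estimates of Mrpl4, Cox7a2, Atp5j and Cox5a did not rest on replicates 3 and 4. The size of that of Ndufa4 did, at -0.39 without them. These genes were picked by a p that already used replicates 1, 2, 5 and 6. Without replicates 3 and 4, 13 of 48 orientation estimates, or 27.1%, had an unadjusted p under 0.05, beside 23.4% of 4728 probes. Of the 13, 12 were below 0, as were 604 of the 1107 probes at this p. That is 25.0% of the 48 members beside 12.8% of the 4728 probes. None of the 13 passed after adjustment in limma, and 0 of all probes did. The estimates were -0.65 for Mrpl4, -0.64 for Cox5a, -0.58 for Atp5j and -0.54 for Cox7a2. For the ratio 3 of 48, or 6.25%, had an unadjusted p under 0.05, beside 13.6%, namely Ndufa4, Cox8a and Cox7a2l. Each was below 0, so 6.25% of members lay below 0 at this p, beside 5.54% of probes. With arrays weighted by how well they follow the fit, which gave replicates 3 and 4 weights of 0.10 and 0.31 against 1.40 to 4.01 on the others, 2 members passed for the orientation estimate, beside 0.625% of all probes. These were Mrpl4 at -0.65 ± 0.068 (SE, n = 6; limma, adjusted p = 0.0249) and Cox7a2 at -0.55 ± 0.069 (SE, n = 6; limma, adjusted p = 0.0256). Atp5j and Cox5a stood at -0.54 and -0.58, each with an adjusted p of 0.0552. The weights were estimated from these same arrays with the same model, and the p takes them as known. Replicates 3 and 4 counted for little in it, and leaving them out without weights gave 0 passing probes. These orientation estimates could be a lower RNA level in the mutant, with the cy3 arrays turned, or a higher one, with the cy5 arrays turned. They could also be a dye effect, and these readings cannot be told apart. Leaving out replicate 3 raised the count at an unadjusted p under 0.05 from 5 to 8, and leaving out replicate 6 lowered it to 3.

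Within each orientation, where all arrays run the same way whatever the direction of the ratio, 0 members passed in limma, beside 0.0% of probes. On the cy3 arrays alone, Atp5j and Cox5a had an unadjusted p under 0.05, which is 4.35% of 46 members beside 1.03% of 3995 probes. Their means were 0.74 ± 0.47 and 0.64 ± 0.25 (SD, n = 3). On the cy5 arrays alone, Mrpl4, Cox7a2, Ndufa4 and Sdhb did, 8.7% of 46 members beside 3.61% of 4374 probes. Mrpl4 had a mean of -0.74 ± 0.20, Cox7a2 of -0.62 ± 0.12 and Sdhb of -0.52 ± 0.39 (SD, n = 3).

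The promoters of genes of this kind are known for sites of NRF1, a factor that binds near the start of many nuclear genes for respiration. Since 8 members separated by orientation in 1 direction, the promoters of 4 of them are shown, from 250 bases before to 50 after the start, as RefSeq gives them for GRCm38.p6, in lower case with each match to GCGCNTGCG on either strand in capitals, overlapping matches counted as 1. Atp5k (chr5:108434350-108434649, minus strand) and Sdha (chr13:74350191-74350490, minus strand) hold matches, with 1 and 3. Cox7a2 (chr9:79759804-79760103, minus strand) and Cox5a (chr9:57520982-57521281, plus strand), whose orientation estimates were larger in size, hold none.
Atp5k: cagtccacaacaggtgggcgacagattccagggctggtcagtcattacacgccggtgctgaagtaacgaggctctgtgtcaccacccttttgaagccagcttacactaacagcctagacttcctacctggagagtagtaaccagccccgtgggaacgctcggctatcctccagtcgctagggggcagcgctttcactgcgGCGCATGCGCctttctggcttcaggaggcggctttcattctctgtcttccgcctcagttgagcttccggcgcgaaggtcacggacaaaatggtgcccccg
Sdha: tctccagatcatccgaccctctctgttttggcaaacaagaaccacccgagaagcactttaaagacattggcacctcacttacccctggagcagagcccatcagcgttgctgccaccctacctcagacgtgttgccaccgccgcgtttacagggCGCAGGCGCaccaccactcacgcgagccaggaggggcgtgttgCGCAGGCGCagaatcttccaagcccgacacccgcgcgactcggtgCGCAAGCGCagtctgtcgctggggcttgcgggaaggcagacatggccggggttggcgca
Cox7a2: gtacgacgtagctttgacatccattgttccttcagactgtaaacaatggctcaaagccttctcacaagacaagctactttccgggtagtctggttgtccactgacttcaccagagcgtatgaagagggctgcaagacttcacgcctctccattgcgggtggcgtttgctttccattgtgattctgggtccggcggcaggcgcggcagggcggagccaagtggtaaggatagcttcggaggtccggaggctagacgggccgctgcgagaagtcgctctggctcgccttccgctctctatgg
Cox5a: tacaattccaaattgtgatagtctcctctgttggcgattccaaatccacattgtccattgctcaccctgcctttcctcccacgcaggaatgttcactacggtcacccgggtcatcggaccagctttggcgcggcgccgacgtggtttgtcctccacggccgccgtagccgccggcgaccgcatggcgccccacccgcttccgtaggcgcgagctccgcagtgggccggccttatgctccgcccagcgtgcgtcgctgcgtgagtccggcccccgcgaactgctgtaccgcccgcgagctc
Of the 8 members 7 had a promoter in the RefSeq table, and 2 of these held a match (Atp5k, Sdha). Over all 44 members with a promoter 11 held this motif, or 25.0%, beside 14.2% of 3539 fitted genes and 7.12% of 27025 genes. They were Atp5c1, Atp5k, Atp5md, Cox6a1, Cycs, Mrpl39, Mrps7, Mrps9, Sdha, Timm13 and Timm8b, whose ratios ran from -0.24 to 0.070. The letters CCGGAAGTG, bound by GABPA, another regulator of respiratory genes, were found in 1 of 44 (Timm23), beside 3.62% of fitted and 2.25% of all genes. TCAAGGTCA, bound by ESRRA, was found in 1 of 44 (Timm8b), beside 0.367% of fitted and 0.466% of all genes, and AAGATGGCG, bound by YY1, in 3 of 44 (Atp5j, Atp5j2, Ndufs4), beside 2.94% of fitted and 1.64% of all genes.

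Another pattern was shared by the head of ATP synthase and several other members, a value above 0 on replicates 1 and 2 and below 0 on replicates 3 and 4. It was found in 18 of 44 members, or 40.9%, beside 33.1% of complete probes. Besides Atp5a1, Atp5b, Atp5c1, Atp5j2, Atp5md and Atp5pb, these were the complex I genes Ndufa1, Ndufa2 and Ndufa13, Sdhb, Cox4i1, Cox6a2, Mrpl39, Mrps7, Mrps9, Mrps12, Timm23 and Timm44. Values below 0 on both replicates 3 and 4 were found in 22 of 44 members, beside 53.2% of probes. Values below 0 on both replicates 5 and 6 were found in 23 of 44 members, or 52.3%, beside 31.8%.

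Cytosolic ribosomal proteins and proteasome subunits, which are also produced steadily in most cells, gave a measure for comparison. Of 41 cytosolic ribosomal protein genes 40 had values, and their median was 0.28, 0.17, -0.89, -0.49, -0.0045 and -0.37 on replicates 1 to 6, and over the 25 to 28 of 29 proteasome genes with a value on each array 0.065, 0.080, -0.98, -0.52, 0.054 and -0.086. On replicates 3 and 4 both lay further below 0 than the mitochondrial genes, at -0.12 and -0.24. On replicate 5 the mitochondrial genes had the lowest median of the 3 groups, at -0.09, and on replicate 6 they lay at -0.26, between the others. The ratio was below 0 for 37 of 40 ribosomal protein genes, 26 of 27 proteasome genes and 33 of 48 mitochondrial genes, beside 56.8% of all genes. Without replicates 3 and 4 these counts were 14 of 40, 8 of 27 and 26 of 48, beside 37.9% of all genes. The low ratios of ribosomal protein and proteasome genes thus rest on these arrays. The orientation estimate was below 0 for 28 of 40, 13 of 27 and 31 of 48, beside 46.9% of all genes. Without replicates 3 and 4 it was below 0 for 34 of 40, 15 of 27 and 35 of 48, beside 51.8%. The ribosomal share there was 85.0%, with a median of -0.21, against 72.9% and -0.097 for the mitochondrial genes. Orientation estimates below 0 were thus not particular to the mitochondrial genes. The differences between the groups were not tested.

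**Figure D5:**
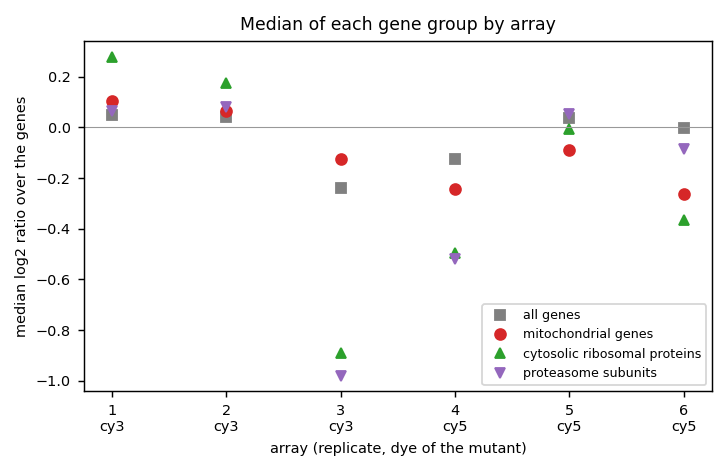
Median log2 ratio (vertical axis) on each array (horizontal axis, with the dye of the mutant) over all genes (grey squares), the mitochondrial genes (red circles), cytosolic ribosomal proteins (green triangles) and proteasome subunits (purple triangles). On replicate 3 the medians were -0.89 and -0.98 for ribosomal proteins and proteasome subunits and -0.12 for the mitochondrial genes.

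Other genes of energy metabolism were followed through lists of their functions, with probes averaged per gene. None of these genes passed in limma for the ratio or the orientation estimate (smallest adjusted p of 0.927 and 0.978). Values in parentheses here are the ratios without replicates 3 and 4. The citric acid cycle and pyruvate entry list had 5 above and 9 below 0 for the ratio, beside 56.8% of all genes below 0. Without replicates 3 and 4 it had 7 above and 7 below 0, beside 37.9% of all genes below 0. The pyruvate carrier Mpc1 stood at -0.27 (-0.16). The malate dehydrogenase Mdh2 stood at 0.36 (-0.079), with 1.28 and 1.19 on replicates 3 and 4 and values from -0.24 to 0.13 on the others. The orientation estimate of this list was below 0 for 12 of 14 genes, with a median of -0.072, beside 46.9% of all genes and a median of 0.016, and for 13 of 14 without replicates 3 and 4, beside 51.8%. The isocitrate dehydrogenase genes Idh2 and Idh3g and the succinyl-CoA ligase gene Suclg2, chosen after their values were seen, had orientation estimates of -0.40, -0.31 and -0.32.

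Glycolysis genes had 6 above and 12 below 0 for the ratio. Without replicates 3 and 4 they had 9 above and 9 below 0, where 37.9% of all genes lay below 0. The lactate carrier Slc16a1 stood at 0.35 (0.025) and hexokinase Hk1 at -0.21 (-0.017), so both were near 0 without these arrays. The orientation estimate was below 0 for 16 of 18 glycolysis genes, with a median of -0.095, and for 15 of 18 without replicates 3 and 4. Over all genes these shares were 46.9% and 51.8%. Genes of fatty acid oxidation had 1 of 8 orientation estimates below 0, with a median of 0.14, and 0 of 8 without these arrays. They had 4 above and 4 below 0 for the ratio, with Acadvl at 0.14 (0.22) and Cpt1a at 0.13 (0.23).

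Genes that maintain mitochondria gave no passing member either. Mitochondrial chaperones and proteases had 2 above and 7 below 0, with the HSP60 partner Hspe1 at -0.36 (-0.37) and prohibitin 2, Phb2, at -0.22 (-0.086). Hspe1 also had an orientation estimate of -0.36. Its unadjusted p in limma was 0.024 for the ratio and 0.025 for the orientation estimate, with adjusted p of 0.927 and 0.978. Of 4417 genes, 78 and 188 had an unadjusted p under 0.05 for these estimates. Carriers and channels had 1 above and 5 below 0, with the ADP/ATP carrier Slc25a5 at -0.25 (-0.098) and the porin Vdac2 at -0.18 (-0.19). Fusion and fission genes had 1 above and 2 below 0, with the transport adaptor Rhot1 at -0.11 (0.082) and Mtch1 at -0.058 (0.072). Redox defence genes had 2 above and 4 below 0, with the peroxiredoxin Prdx3 at -0.18 (-0.34) and glutathione reductase Gsr at -0.20 (0.092). Genes acting on mitochondrial DNA and RNA had 1 above and 3 below 0, with Tfb2m at -0.11 (0.20) and Polg2 at 0.12 (-0.25), and Sars2 was the 1 mitochondrial tRNA synthetase with a value, at -0.19 (0.12). Without replicates 3 and 4 the ratios below 0 were 5 of 9 for chaperones and proteases, 3 of 6 for carriers and channels, 0 of 3 for fusion and fission, 2 of 6 for redox defence and 2 of 4 for mitochondrial DNA and RNA. The share over all genes was 37.9%, or 56.8% with all arrays. Orientation estimates below 0 numbered, in the same order of lists, 4 of 9, 3 of 6, 2 of 3, 5 of 6 and 2 of 4, beside 46.9% of all genes. Without replicates 3 and 4 they numbered 6 of 9, 3 of 6, 2 of 3, 5 of 6 and 3 of 4, beside 51.8%.

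Of the regulators of mitochondrial genes 6 lay above and 5 below 0, with and without replicates 3 and 4. Gabpa, a subunit of the factor also called NRF2, was above 0 on all 6 arrays, from 0.092 to 1.64 on replicate 3, with a ratio of 0.50 ± 0.21 (SE, n = 6), or 0.21 without replicates 3 and 4. The coactivator Hcfc1 stood at 0.46 (0.38), with 2.05 on replicate 1, and at 0.15 without that replicate. Nrf1, named after its value was seen, lay at 0.63, 0.41 and 0.36 on the cy3 arrays and -0.32, -0.42 and -0.65 on the cy5 arrays. It had a ratio of 0.0020 and an orientation estimate of -0.46, in the direction of Mrpl4 and Cox7a2 (limma, unadjusted p = 0.0042; adjusted p = 0.978), or -0.53 without replicates 3 and 4.

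Marker genes of the cell types in the tissue were set beside these values. Of 9 projection neuron markers with values 0 lay above and 9 below 0 for the ratio, and their median ran from -0.99 on replicate 3 to 0.24 on replicate 2. Without replicates 3 and 4, 6 lay above and 3 below 0. Over all genes 56.8% of ratios lay below 0, and 37.9% without these arrays. Of 11 progenitor markers 7 lay above 0, or 9 without these arrays, with array medians between -0.11 and 0.20. Erythroid markers had medians between -0.13 and 0.24, and those of meninges and vessels between -0.40 and 0.26, with 8 genes fitted. Interneuron and ganglionic eminence markers had 1 of 7 above 0 and choroid plexus markers 4 of 5, or 2 of 7 and 5 of 5 without replicates 3 and 4. For glia and for microglia 4 of 9 genes with a probe could be fitted, and 1 of 4 lay above 0 in each, or 2 of 4 without these arrays. The microglial median ran from -0.12 on replicate 5 to 1.24 on replicate 4, and the glial one from -0.91 on replicate 1 to 0.47 on replicate 5. Those of interneuron and choroid plexus markers ran from -0.47 to 0.38 and from 0.0086 to 0.49. None of the marker genes passed in limma. The orientation estimate was below 0 for 2 of 9 projection neuron and 7 of 11 progenitor markers, and without replicates 3 and 4 for 5 of 9 and 7 of 11. Over all genes the shares were 46.9% and 51.8%. The part of tissue makeup in the mitochondrial values was not tested.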

How the data were processed

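RNA of 6 null mutant embryos was compared with 1 wild-type pool on 6 arrays of 2 colours, and the targeted gene is not reported here. The log2 ratios were used as the authors deposited them, after processing whose scanner, correction and normalization steps neither labels nor file headers describe. Base 2 was assumed, because the largest size of 7.84 is too large for base 10; with a natural logarithm each value would be multiplied by 1.44. Probes near background and slide or scan batches are unknown. The table holds 6856 probes, of which 6269 carry 1 symbol in the platform annotation, 6 several and 581 none, and 776 have no value. All 49 members matched RefSeq by gene identifier, and 44 had a promoter sequence there.

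The fit required 2 or more values per orientation, which left 4958 probes, and used limma 3.58.1 (lmFit, eBayes; R 4.3.3). Its model held an intercept and the dye orientation. Tests were two-sided, and p-values were adjusted over all probes by Benjamini and Hochberg, with a threshold of 0.05. Each orientation was also fitted alone. Pathway and marker lists used probes averaged per gene. The method was tested on simulated data. Named members are up to 4 per complex with the smallest p for the ratio, those with an unadjusted p under 0.05, and those with a size of 1 or more on 2 arrays; each other list gives its 2 smallest p. Other genes were named after their values were seen. The members, lists and motifs were chosen with earlier results of these data known. Alternatives were the turned sign, no dye term, centring, scaling, complete probes, array weights, averaging per gene, a threshold of 0.1 and leaving out arrays. The labels call the mutants biological replicates.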

Additional observations from a re-analysis of the deposited data

Results flagged for a closer look

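On replicate 3, Cox5b stood at 1.86 and Mrps33 at 3.76, each far above its values on the other 5 arrays, with gaps of 0.841 and 0.781 of the whole range. The limit used to pick out such a gap, 0.625 for 6 arrays, is passed by chance in about 1 of 20 groups, and 48 members were looked at. Both lie on the array with the largest standard deviation.

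In 4 members every array of one dye orientation lay on one side of 0 and every array of the other orientation on the opposite side. The orientation estimates were -0.62 for Mrpl4, -0.48 for Cox7a2, -0.92 for Mrps33 and 0.36 for Timm10b, and none passed in limma after adjustment. Values above 0 on all cy3 and below 0 on all cy5 arrays were found in 3 of 44 members, or 6.82%, beside 2.23% of 3763 probes. The share of probes with the reverse signs is not given here.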

How the results depend on the processing

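Over all probes, 0 passed for the ratio in limma, and 88 had an unadjusted p under 0.05; 2 passed with array weights and 1 without replicates 3 and 4. For the orientation estimate 0 passed, with 228 at an unadjusted p under 0.05, and 31 passed with array weights, 2 of them mitochondrial; 1 passed without replicates 3 and 4 when replicates 1 and 2 were turned, an alternative chosen after seeing the data. Left out in turn, replicates changed the cy3 count from 0 to between 0 and 17 (17 without replicate 1, 16 without replicate 2) and the cy5 count from 0 to between 0 and 18 (18 without replicate 6, 1 without replicate 5). For the ratio, members at an unadjusted p under 0.05 numbered 0, against 5 with replicates 1 to 3 turned, 1 with scaled arrays, 2 with array weights, 3 without replicates 3 and 4, 13 when replicates 1 and 2 were also turned, and 0 to 1 without single replicates. For the orientation estimate they numbered 5, against 0 with the turned sign, 8 with scaled arrays, 17 with array weights, 13 without replicates 3 and 4, 3 when replicates 1 and 2 were also turned, and 3 to 8 without single replicates. The signs of ratios of the named members were unstable, and the cause was not tested. Turning the cy3 arrays exchanges the ratio and the orientation estimate by construction. The counts and values with turned replicates are thus those of the other estimate and no separate check. With replicates 1 to 3 turned, the sign changed in this way for Mrps33 -0.92, Atp5j -0.57, Cox5a -0.52, Cox5b -0.38, Cycs -0.30, Timm17a 0.0032, Atp5c1 0.047, Atp5j2 0.099, Tomm40 0.11, Cox8b 0.13, Mrps12 0.23 and Mrpl40 0.25. Without replicates 3 and 4 it changed for Cox7a1 -0.33, Ndufaf3 -0.21, Cox5a -0.12, Atp5j -0.12, Cox5b -0.11, Mrps33 -0.10, Timm23 0.0039, Mrps9 0.0087, Atp5md 0.020, Mrpl4 0.022, Ndufa1 0.023, Atp5j2 0.028, Atp5a1 0.031, Atp5c1 0.045, Tomm40 0.057, Mrps7 0.076, Cox8b 0.080 and Mrps12 0.13. With array weights it changed for Cox7a1 -0.17, Ndufaf3 -0.12, Cox5a -0.085, Cox5b -0.079, Mrps33 -0.068, Atp5j -0.059, Cycs -0.020, Ndufa1 0.0046, Atp5c1 0.024, Tomm40 0.027, Mrps7 0.035, Mrps12 0.061, Atp5md 0.068 and Cox8b 0.086, with median centring for Tomm40 0.017 and with scaled arrays for Cox7a1 -0.022, Mrps7 0.0030 and Tomm40 0.039. Leaving out single replicates gave the ranges Ndufa1 -0.21 to 0.011, Ndufaf3 -0.062 to 0.30, Cycs -0.083 to 0.11, Cox5a -0.058 to 0.24, Cox5b -0.074 to 0.40, Cox7a1 -0.11 to 0.51, Atp5md -0.40 to 0.066, Mrps12 -0.33 to 0.058, Mrps33 -0.018 to 0.84, Mrps7 -0.24 to 0.064, Tomm40 -0.087 to 0.045, Tfb2m -0.24 to 0.11, Polg2 -0.12 to 0.28, Sars2 -0.32 to 0.025 and Mtch1 -0.11 to 0.024. Among genes of the pathway lists, with probes averaged per gene and as an alternative chosen after seeing the data, the sign without replicates 3 and 4 changed for Polg2 -0.25, Mdh2 -0.079, Mtch1 0.072, Rhot1 0.082, Gsr 0.092, Sars2 0.12 and Tfb2m 0.20. The orientation estimates of Mrpl4, Cox7a2, Atp5j, Cox5a and Ndufa4 kept their negative sign in each alternative run for them. The turned sign was not among these. It puts the ratio in place of the orientation estimate, which is above 0 for Atp5j (0.16) and Cox5a (0.13) and below 0 for Mrpl4, Cox7a2 and Ndufa4. No paired analysis was possible because there is 1 group and 1 pool.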
